A study of Saccharomyces cerevisiae with 15 samples.

Results

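The genes described here are 62 yeast genes whose standard names begin with UTP, NOP, RRP, NOC, NSA, ENP or ESF followed by a number, which are the classical names of ribosome biogenesis factors. They were taken by name from the array annotation, and they were 62 of the 5449 genes measured. Each of the 62 had 1 probe set, and none of these carried the mark by which the manufacturer flags possible matches to several transcripts. All were measured in budding yeast, Saccharomyces cerevisiae, of the haploid laboratory strain YPH499, on 15 Affymetrix arrays in 5 groups of 3 arrays. Cells of 4 groups expressed a human interleukin-1 receptor-associated kinase from plasmid pEG(KG) under the galactose-induced GAL1 promoter: IRAK4, IRAK4(KD) (a form of IRAK4 without catalytic activity), IRAK1 or IRAK2. Control cells carried pEG(KG) without an insert. All cells, Control included, were precultured for 18 h in raffinose medium, diluted to an optical density of 0.3 and kept in galactose medium for 6 h at 30 °C. The 3 arrays of a group are biological replicates per the labels, which do not say how the cultures were set up, so p-values measure the spread between these samples. How much of each human protein the cells made was not analysed here.

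Ribosomes are assembled in the nucleolus, where RNA polymerase I transcribes a long precursor rRNA that is folded, chemically modified, cut and trimmed while ribosomal proteins are added. The small-subunit processome, built from the UTP-A, UTP-B and UTP-C subcomplexes, the U3 snoRNP and many single factors, forms on the first part of that precursor and makes the small subunit. A further set of factors matures the large subunit, and the RNA exosome trims and degrades the RNA ends and spacers. In yeast the genes of these factors form a large co-regulated group that is known to be expressed strongly in fast growth and repressed under stress. By role the 62 genes comprised 6 of UTP-A, 4 of UTP-B, 3 of UTP-C, 5 core proteins of small nucleolar RNPs (snoRNPs), 19 other small-subunit processome factors, 18 large-subunit assembly factors and 7 exosome subunits.

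Values are log2 intensities as deposited, so a difference of 1 is a 2-fold change, and levels are compared for 1 gene across arrays, never between genes. The arrays had like overall levels, with medians over all genes between 8.72 and 8.87. Of the genes that mark the a mating type of this strain, MFA1, MFA2, STE2 and STE6 lay between 8.08 and 10.23 on every array, and BAR1 and ASG7 between 5.94 and 8.26. The galactose genes GAL1, GAL2, GAL7 and GAL10 lay between 12.57 and 13.50. HIS3, deleted in the strain, lay between 3.33 and 4.02. The alpha-type genes MF(ALPHA)1, MF(ALPHA)2 and STE3 lay between 2.62 and 6.57, and SAG1 was higher, between 7.64 and 8.77.

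One array stood apart, across all genes and in the 62 genes. IRAK1 replicate 1 correlated at 0.968 across all genes with either other IRAK1 array, whereas all other replicate pairs of the study reached 0.993 or more. Across the 62 genes its correlations were 0.895 and 0.892, against 0.978 between IRAK1 replicates 2 and 3 and 0.975 to 0.994 within the other groups. It lay below both other IRAK1 arrays in 59 of the 62 genes (95.2%), against 2010 of 5449 genes overall (36.9%). The 3 exceptions were RRP42, RRP43 and RRP45, all subunits of the exosome ring. Replicate 1 minus the mean of IRAK1 replicates 2 and 3 had a median of -0.87 over the 62 genes and 0.05 over all genes. This difference was -0.5 or lower in 50 of the 62 (80.6%), against 11.5% of all genes. The lowest values were -1.61 in ENP2, -1.43 in UTP14, -1.42 in NOP14, -1.41 in RRP5 and -1.39 in NOP7. By role this median was -0.92 in UTP-A, -0.98 in UTP-B, -0.60 in UTP-C, -0.64 in the snoRNP core proteins, -0.89 in the other small-subunit factors and -0.89 in the large-subunit factors, but -0.05 in the exosome subunits. Most results that include IRAK1 are therefore given with and without replicate 1, and the rest with all arrays only.

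The array also bears on comparisons without IRAK1, because 1 spread per gene was estimated from all 15 arrays. The median SD of the 62 genes within a group was 0.50 in IRAK1, against 0.10 in IRAK4, 0.07 in IRAK4(KD), 0.09 in IRAK2 and 0.08 in Control, and 0.09 between IRAK1 replicates 2 and 3. Leaving replicate 1 out lowered the median standard error of a difference between the other groups from 0.17 to 0.089, without moving the differences themselves. Where replicate 1 stands apart, the shared spread is smaller than the spread within IRAK1. For such genes the standard errors and p-values of IRAK1 comparisons with all arrays are too small. From the 6 arrays of IRAK1 and Control alone 26 of the 62 genes were called, against 50 with the shared spread (45.1% and 58.7% of all genes). Why this array stands apart was not tested.

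Array by array, the median of the 62 genes lay below the Control mean in IRAK4, IRAK4(KD) and IRAK1, and close to it in IRAK2. Relative to the Control mean, the median of the 62 genes was -0.30, -0.40 and -0.18 on the IRAK4 arrays and -0.19, -0.16 and -0.20 on the IRAK4(KD) arrays. It was -1.22, -0.35 and -0.35 on the IRAK1 arrays and 0.09, -0.01 and 0.02 on the IRAK2 arrays. The median over all genes stayed between -0.03 and 0.16 on every array. The number of the 62 genes below their Control mean was 56, 58 and 46 in IRAK4, 47, 44 and 49 in IRAK4(KD), 62, 55 and 60 in IRAK1 and 18, 33 and 26 in IRAK2. On the Control arrays themselves it was 37, 38 and 19. All 3 arrays of IRAK4, IRAK4(KD) and IRAK1 thus had medians below 0, and the IRAK2 arrays lay on either side of it. In such bulk RNA samples, fewer cells of a kind and less RNA per cell cannot be told apart.

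**Figure D1:**
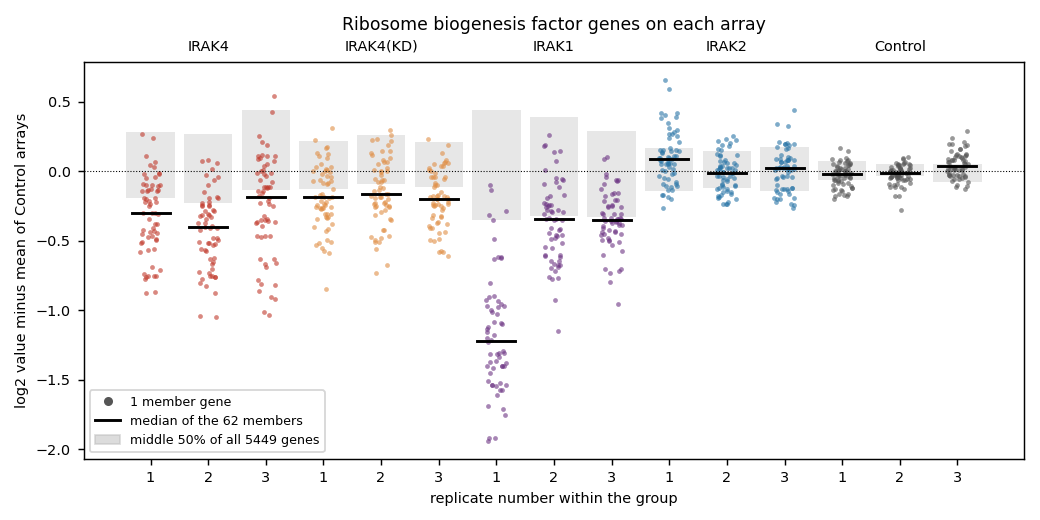
Log2 value minus the mean of the Control arrays (y axis) for each of the 62 ribosome biogenesis genes (dots) on each of the 15 arrays (x axis, replicate numbers within IRAK4, IRAK4(KD), IRAK1, IRAK2 and Control). Black lines are medians of the 62 genes and grey boxes span the middle 50% of all 5449 genes; IRAK1 replicate 1 has its median at -1.22, and replicates 2 and 3 have theirs at -0.35.

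Differences between groups were tested per gene with limma over all 5449 genes, and a gene was called at a Benjamini-Hochberg adjusted p under 0.05. IRAK1 had the most calls against Control. Of the 62 genes 50 fell and 0 rose in IRAK1 against Control, where 28.2% of all genes fell and 30.6% rose. The median difference was -0.66 over the 62 genes and 0.02 over all genes. Without IRAK1 replicate 1 the count was 44, all among the 50, where 30.8% of all genes fell, and the median was -0.35. All IRAK1 arrays lay below all Control arrays in 49 of the 62 genes and above them in 0, against 28.6% and 31.8% of all genes. IRAK1 replicates 2 and 3 both lay below every Control array in 49 of the 62 genes (79.0%), against 37.3% of all genes. The 3 genes that fell at least 2-fold were UTP5, NOP56 and NOP7, and none of them did so without replicate 1; 9.12% of all genes were called at that size.

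**Figure D2:**
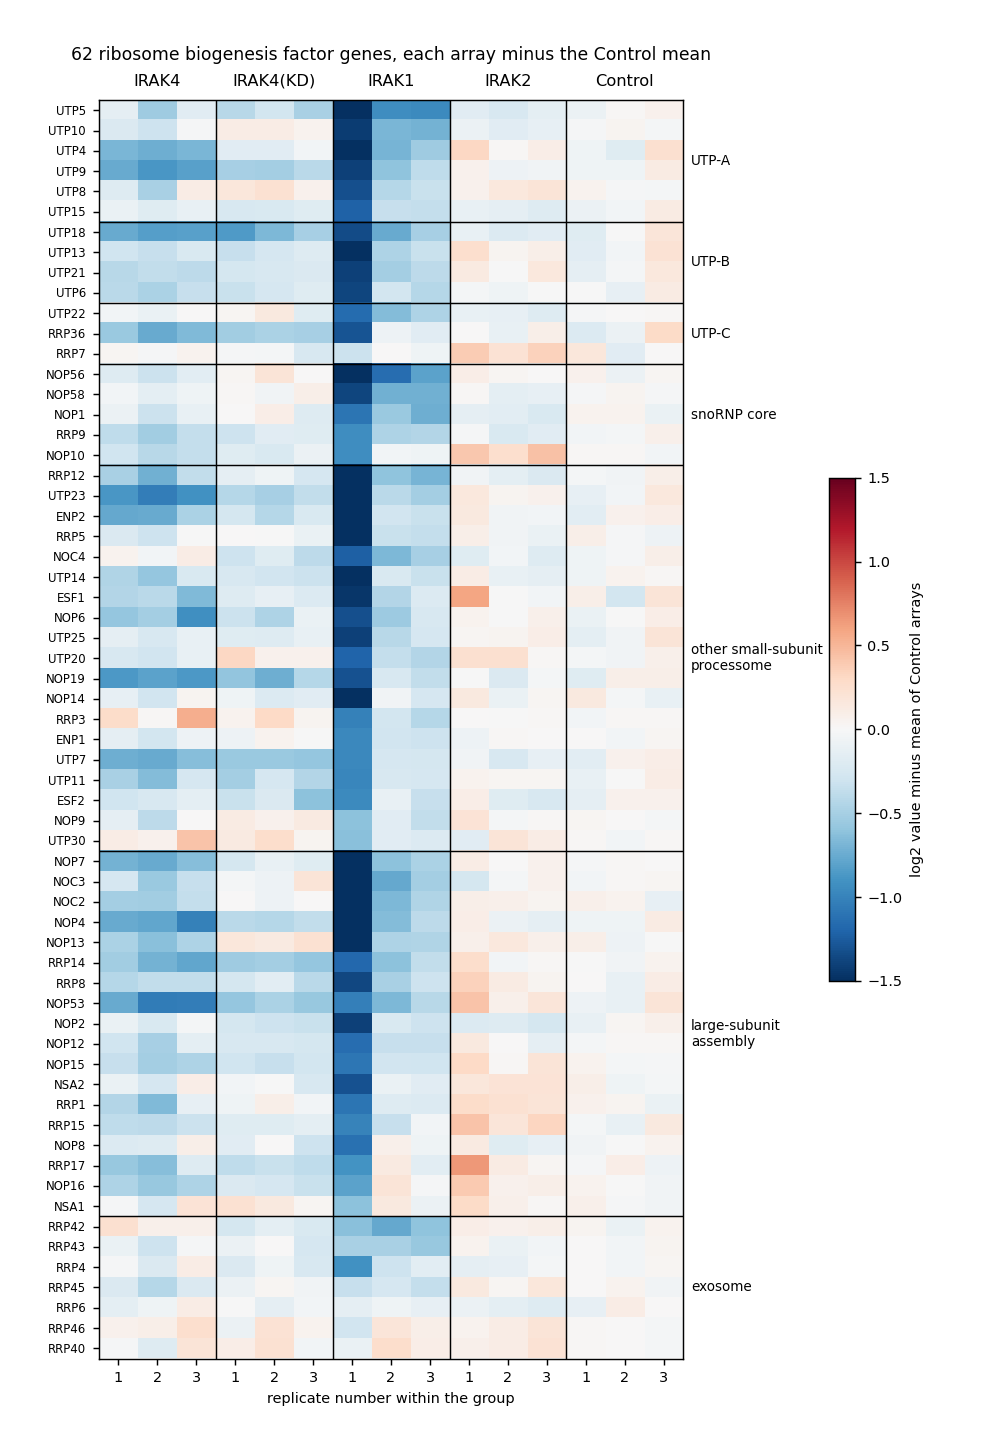
Log2 value minus the mean of the Control arrays (colour, blue below and red above, colours saturated at 1.5 in either direction) for the 62 genes (rows, grouped by role and ordered within a role by the IRAK1 minus Control difference) on the 15 arrays (columns, by group). The column of IRAK1 replicate 1 is the darkest blue, and in it the exosome subunits RRP42, RRP43 and RRP45 are not below both other IRAK1 columns.

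The UTP-A subcomplex, whose proteins bind the nascent precursor rRNA first and are tied to its transcription, fell in all 6 members in IRAK1, with and without replicate 1 (median -0.86 and -0.55). UTP5 had log2 values of 8.28, 9.26 and 9.24 in IRAK1, against 10.11, 10.21 and 10.26 in Control. All IRAK1 arrays lay below all Control arrays, replicate 1 by the widest margin. The difference was -1.27 ± 0.20 (SE; adjusted p = 9.31e-05) and -0.94 without replicate 1 (adjusted p = 2.9e-06). UTP10, a large repeat protein of the same subcomplex, had 8.25, 8.98 and 8.97 in IRAK1, against 9.65, 9.71 and 9.64 in Control, again with no overlap. It fell by 0.94 ± 0.15 (adjusted p = 0.000105), and by 0.70 without replicate 1. UTP4, the yeast counterpart of human cirhin, had 7.51, 8.35 and 8.52 in IRAK1, against 8.99, 8.87 and 9.29 in Control, a difference of -0.92 ± 0.20 (adjusted p = 0.00106) and -0.61 without replicate 1. UTP9, UTP8 and UTP15 differed by -0.80, -0.69 and -0.64, and by -0.49, -0.38 and -0.35 without replicate 1.

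UTP-B, a preformed module that joins after UTP-A, fell in 4 of 4 members in IRAK1, with and without replicate 1 (medians -0.78 and -0.43). UTP18 had 8.24, 8.82 and 9.08 in IRAK1, against 9.40, 9.57 and 9.76 in Control. Even the highest IRAK1 array lay below the lowest Control array. Its difference was -0.87 ± 0.16 (adjusted p = 0.000458), and -0.63 without replicate 1. UTP13, UTP21 and UTP6 fell by 0.79, 0.77 and 0.69, and by 0.40, 0.45 and 0.35 without replicate 1.

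UTP-C behaved unevenly. UTP22, its scaffold, had 7.83, 8.34 and 8.52 in IRAK1, against 8.96, 8.99 and 9.0 in Control, and fell by 0.75 ± 0.14 (adjusted p = 0.0003), or by 0.55 without replicate 1. Its partner RRP7 had 8.77, 9.10 and 9.03 in IRAK1, against 9.25, 8.91 and 9.10 in Control. These groups overlapped, and the difference of -0.12 ± 0.11 was not called (adjusted p = 0.33). RRP36 had 7.66, 8.88 and 8.78 in IRAK1, against 8.75, 8.87 and 9.24 in Control, so that replicate 1 alone lay below the Control arrays (-0.51 ± 0.23, adjusted p = 0.0708).

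Among the core snoRNP proteins, 4 of 5 fell in IRAK1, with and without replicate 1 (medians -0.80 and -0.64). NOP1 (fibrillarin, the RNA 2'-O-methyltransferase), NOP56 and NOP58 build the C/D-box particles that guide methylation of rRNA. NOP56 had 9.15, 9.62 and 9.97 in IRAK1, against 10.83, 10.68 and 10.79 in Control. All 3 IRAK1 arrays lay well below the Control range, and the difference was -1.19 ± 0.15 (adjusted p = 1.1e-05) and -0.97 without replicate 1. NOP58 had 10.53, 11.19 and 11.19 in IRAK1, against 11.89, 11.95 and 11.89 in Control, and fell by 0.94 ± 0.14 (adjusted p = 4.84e-05), or by 0.72 without replicate 1. NOP1 had 10.42, 10.96 and 10.78 in IRAK1, against 11.57, 11.57 and 11.41 in Control, and fell by 0.80 ± 0.12 (adjusted p = 8.73e-05), or by 0.64 without replicate 1. In each of the 3 genes no IRAK1 array reached the Control range. RRP9, the U3-specific protein, fell by 0.61 ± 0.12, and by 0.45 without replicate 1. NOP10, which belongs to the other class of snoRNPs, the H/ACA particles that guide pseudouridylation, had 10.26, 11.14 and 11.13 in IRAK1, against 11.20, 11.21 and 11.15 in Control. There replicate 1 was far below the rest while replicates 2 and 3 lay just under the Control range, and the difference of -0.35 ± 0.17 was not called (adjusted p = 0.0949).

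**Figure D3:**
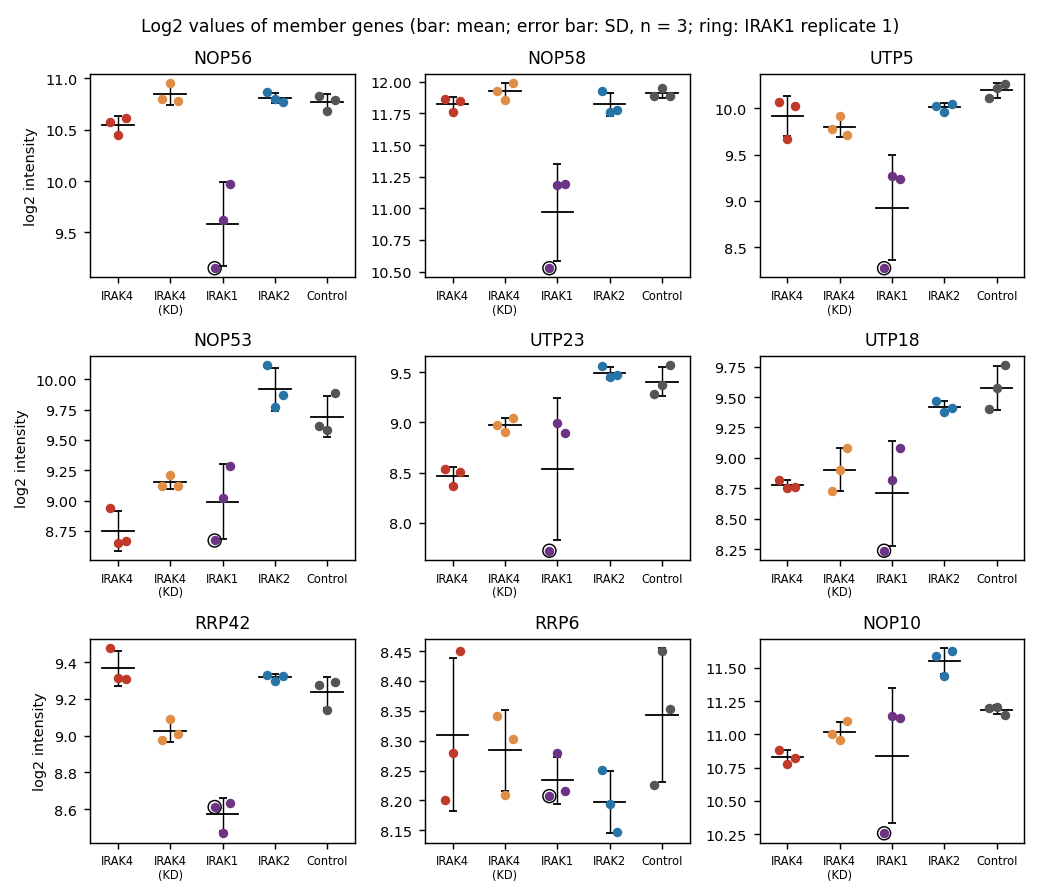
Log2 values (y axis) of 9 of the 62 genes in IRAK4, IRAK4(KD), IRAK1, IRAK2 and Control, with each array as a dot, the mean as a horizontal line and the SD as an error bar (n = 3); rings mark IRAK1 replicate 1. NOP56, NOP58 and UTP5 lie lowest in IRAK1, NOP53 and UTP23 lie below Control in IRAK4, IRAK4(KD) and IRAK1, and RRP42 is low in all 3 IRAK1 arrays.

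The other small-subunit factors fell in 18 of 19 genes in IRAK1 and in 14 without replicate 1 (medians -0.66 and -0.31). RRP12, a repeat protein of the maturing small subunit, had 8.20, 9.14 and 9.04 in IRAK1, against 9.71, 9.68 and 9.82 in Control, and fell by 0.95 ± 0.18 (adjusted p = 0.000518), or by 0.65 without replicate 1. NOC4, which works in a complex with NOP14, had 8.32, 8.87 and 9.05 in IRAK1, against 9.47, 9.53 and 9.63 in Control, and fell by 0.80 ± 0.14, or by 0.58 without replicate 1. NOP14 itself had 7.41, 8.94 and 8.74 in IRAK1, against 9.14, 8.96 and 8.88 in Control. Replicate 2 lay within the Control range and replicate 3 just below it, and NOP14 was the 1 gene of this group that was not called (-0.63 ± 0.27, adjusted p = 0.0587).

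The differences of other factors of the same group were smaller without replicate 1, most so in ENP2 among those given here. ENP2 had 8.01, 9.64 and 9.59 in IRAK1, against 9.77, 9.99 and 10.03 in Control, so its difference of -0.85 ± 0.30 (adjusted p = 0.025) was -0.31 without replicate 1. RRP5, which acts on the precursors of both subunits, differed by -0.82 ± 0.26 and by -0.35 without it. UTP23 and UTP20 differed by -0.87 and -0.66, and by -0.46 and -0.39 without it. Among all 62 genes, 6 calls were lost when replicate 1 was left out: ESF1 (then -0.32), ESF2 (-0.22), RRP1 (-0.20) and, named after their values were seen, UTP11 (-0.24), RRP15 (-0.19) and UTP30 (-0.19).

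Large-subunit assembly factors fell in 13 of 18 genes in IRAK1 and in 11 without replicate 1 (medians -0.63 and -0.32). NOP7, which forms a complex with ERB1 and YTM1, had 7.63, 8.94 and 9.08 in IRAK1, against 9.55, 9.58 and 9.56 in Control. The Control arrays lay within 0.03 of each other and above every IRAK1 array, and the difference was -1.01 ± 0.25 (adjusted p = 0.00364) and -0.55 without replicate 1. The SD was 0.80 in IRAK1 and 0.01 in Control, so the error from the shared spread understates the spread in IRAK1. NOC2 and NOC3, which bind each other, fell by 0.89 ± 0.19 and 0.93 ± 0.19, and by 0.56 and 0.64 without replicate 1. NOP4, an RNA-binding factor, fell by 0.85 ± 0.20, and by 0.52 without it. NOP2, an rRNA cytosine methyltransferase, fell by 0.65 ± 0.21, but by 0.27 without it. NSA1 had 8.21, 8.98 and 8.74 in IRAK1, against 8.90, 8.81 and 8.77 in Control, with IRAK1 arrays above as well as below the Control range. NSA2 had 8.88, 10.09 and 10.02 in IRAK1, against 10.27, 10.12 and 10.16 in Control. Neither was called (adjusted p = 0.336 for NSA1 and 0.0606 for NSA2).

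The exosome subunits differed among themselves, and here replicate 1 mattered least. RRP42, a subunit of the ring, had 8.61, 8.47 and 8.63 in IRAK1, against 9.28, 9.14 and 9.29 in Control. The 3 IRAK1 arrays lay together and well below Control, and the difference was -0.66 ± 0.08 (adjusted p = 7.03e-06) and -0.68 without replicate 1. RRP43, also of the ring, had 8.47, 8.47 and 8.38 in IRAK1, against 8.96, 8.91 and 9.0 in Control, and fell by 0.51 ± 0.09 (adjusted p = 0.000231). RRP45 had 9.01, 9.11 and 9.0 in IRAK1, against 9.37, 9.41 and 9.31 in Control, and fell by 0.32 ± 0.08 (adjusted p = 0.00313). For these ring subunits the groups did not overlap, and leaving out replicate 1 gave -0.53 for RRP43 and -0.30 for RRP45. RRP4, of the cap, fell by 0.46 ± 0.15, and by 0.23 without it. The 3 other subunits were not called. RRP46, also of the ring, had 8.71, 9.17 and 9.08 in IRAK1, against 9.02, 9.0 and 8.96 in Control (-0.01 ± 0.11), and RRP40, of the cap, differed by 0.09 ± 0.11. RRP6, the nuclear exonuclease attached to the complex, had 8.21, 8.28 and 8.21 in IRAK1, against 8.23, 8.45 and 8.35 in Control (-0.11 ± 0.08, adjusted p = 0.275). Its interval ran from -0.29 to 0.07.

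Of the 50 calls in IRAK1 against Control, 41 were kept whichever of the 6 arrays of these groups was left out. From the 6 arrays alone, with the spread taken from them, 26 of the 62 genes were called lower, where 20.8% of all genes were. With the replicate number as a block in these 6 arrays, an alternative chosen after seeing the data, 36 were called lower, against 21.5% of all genes.

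In IRAK4 fewer of the genes were called, led by NOP53, UTP23 and NOP4. Against Control 18 of the 62 genes fell and 0 rose in IRAK4, where 16.4% of all genes fell and 28.2% rose. The median difference was -0.30 over the 62 genes and 0.08 over all genes. The arrays of the groups did not overlap in 40 genes that were lower in IRAK4 and 3 that were higher, against 24.1% and 37.7% of all genes. Without IRAK1 replicate 1 in the shared spread, 36 genes were called lower and 1 higher, against 21.8% and 34.1% of all genes. None of the 62 was called at 2-fold or more, against 5.21% of all genes. The calls were spread over the roles: 2 of 6 in UTP-A, 1 of 4 in UTP-B, 1 of 3 in UTP-C, 1 of 5 snoRNP proteins, 6 of 19 other small-subunit factors, 6 of 18 large-subunit factors and 1 of 7 exosome subunits.

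NOP53, which docks the helicase MTR4 so that the exosome can mature 5.8S rRNA, had 8.94, 8.65 and 8.66 in IRAK4, against 9.61, 9.58 and 9.89 in Control. Every IRAK4 array lay below every Control array, and the difference was -0.94 ± 0.14 (adjusted p = 0.000137). UTP23, a small-subunit factor that contacts the snoRNA snR30, had 8.53, 8.37 and 8.50 in IRAK4, against 9.28, 9.37 and 9.57 in Control (-0.94 ± 0.23, adjusted p = 0.00479). NOP4 had 9.70, 9.68 and 9.44 in IRAK4, against 10.40, 10.40 and 10.58 in Control (-0.85 ± 0.20, adjusted p = 0.0037). Neither gene had an IRAK4 array in the Control range.

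In the processome modules, UTP9 had 9.73, 9.61 and 9.67 in IRAK4, against 10.43, 10.43 and 10.61 in Control, and fell by 0.82 ± 0.18. UTP18 had 8.82, 8.75 and 8.76 in IRAK4, against 9.40, 9.57 and 9.76 in Control, and fell by 0.80 ± 0.16. The IRAK4 arrays of both genes lay close together and below Control. UTP4 fell by 0.70 ± 0.20 and RRP9 by 0.42 ± 0.12, while the C/D-box proteins NOP56 (-0.22 ± 0.15), NOP58 (-0.09 ± 0.14) and NOP1 (-0.18 ± 0.12) and UTP5 (-0.28 ± 0.20) were not called. Of these, NOP56 (adjusted p = 0.0474) and UTP5 (adjusted p = 0.0222) were called lower with IRAK1 replicate 1 out of the shared spread. Of the remaining factors NOP19, UTP7, NOP7 and NOP6 fell by 0.85, 0.71, 0.70 and 0.67. In the exosome RRP45 fell by 0.29 ± 0.08, and RRP42 had 9.48, 9.31 and 9.31 in IRAK4, against 9.28, 9.14 and 9.29 in Control (0.13 ± 0.08, not called).

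Of the 18 calls, 10 were kept whichever of the 6 arrays was left out, namely NOP53, UTP23, NOP4, NOP19, UTP9, UTP18, UTP7, RRP14, RRP9 and RRP45. Without Control replicate 3 the count was 10, where 11.7% of all genes were lower. Among the calls then lost were NOP7 at -0.70, UTP4 at -0.58, NOP6 at -0.62 and RRP12 at -0.48.

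The catalytically inactive IRAK4(KD) gave 4 genes that fell and 0 that rose against Control, which is 6.45% of the 62 genes, where 6.00% of all genes fell and 11.7% rose. The share called thus lay near that of all genes, while the median was -0.17 over the 62 genes and 0.07 over all genes. The arrays did not overlap in 33 genes that were lower in IRAK4(KD) and 6 that were higher, against 15.9% and 32.7% of all genes. None was called at 2-fold or more, against 1.58% of all genes. The 4 genes were UTP18, UTP7, NOP53 and RRP14. UTP18 had 8.73, 8.90 and 9.08 in IRAK4(KD), against 9.40, 9.57 and 9.76 in Control (-0.67 ± 0.16, adjusted p = 0.0143). NOP53 had 9.12, 9.21 and 9.12 in IRAK4(KD), against 9.61, 9.58 and 9.89 in Control (-0.54 ± 0.14, adjusted p = 0.0207). Both lay below Control on every array. UTP7, a processome factor with a repeat propeller, fell by 0.56 ± 0.15, and RRP14, which acts on both subunits, by 0.54 ± 0.15. Against the same Control arrays, UTP18 differed by -0.80 in IRAK4 and -0.87 in IRAK1, UTP7 by -0.71 and -0.49, NOP53 by -0.94 and -0.70, and RRP14 by -0.67 and -0.72. Without replicate 1 the IRAK1 values were -0.63, -0.26, -0.54 and -0.49.

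None of these 4 calls was kept whichever array was left out. Dropping Control replicate 3 left 0 calls and dropping Control replicate 2 left 2, where 2.51% and 2.94% of all genes were lower. When replicate 1, 2 or 3 of IRAK4(KD) was dropped, 0, 1 and 1 genes were called, where 3.41%, 3.41% and 4.35% of all genes were lower. The share of all genes thus also fell in these fits. With IRAK1 replicate 1 out of the shared spread 27 genes were called lower, against 11.8% of all genes.

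IRAK4 was also compared directly with IRAK4(KD), the form without catalytic activity. The amounts of the 2 proteins were not analysed, so activity and amount cannot be told apart in this comparison. Here 4 of the 62 genes (6.45%) were lower and 1 (1.61%) was higher in IRAK4, against 15.3% and 19.7% of all genes, with a median of -0.15 over the 62 genes and 0.00 over all genes. The arrays did not overlap in 29 genes that were lower and 3 that were higher in IRAK4, against 25.1% and 27.3% of all genes, and none was called at 2-fold or more, against 3.45% of all genes. NOP13, a nucleolar RNA-binding protein of large-subunit precursors, had 8.72, 8.56 and 8.73 in IRAK4, against 9.37, 9.32 and 9.42 in IRAK4(KD) (-0.70 ± 0.20, adjusted p = 0.0156). UTP4 had 8.36, 8.32 and 8.36 in IRAK4, against 8.89, 8.88 and 9.01 in IRAK4(KD) (-0.57 ± 0.20, adjusted p = 0.0335). In both genes all IRAK4 arrays lay below all IRAK4(KD) arrays, while Control had 9.28, 9.11 and 9.18 for NOP13 and 8.99, 8.87 and 9.29 for UTP4. NOP53 and RRP45 were lower by 0.40 and 0.25 (differences of -0.40 and -0.25). RRP42 was the gene that was higher, with 9.48, 9.31 and 9.31 in IRAK4, against 8.98, 9.09 and 9.01 in IRAK4(KD) (0.34 ± 0.08, adjusted p = 0.00381), and it was the 1 call kept whichever array was left out. The count was 1 when IRAK4 replicate 2 was dropped, where 28.9% of all genes were called. It was 3, 2 and 2 when replicate 1, 2 or 3 of IRAK4(KD) was dropped, against 29.4%, 27.8% and 27.4% of all genes. With IRAK1 replicate 1 out of the shared spread, 23 genes were lower and 3 higher, against 22.4% and 24.3% of all genes.

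In IRAK2 none of the 62 genes was called by limma against Control, where 3.38% of all genes fell and 5.82% rose. At an unadjusted p under 0.05, 2 genes were higher and 0 lower, and the share of all genes at that limit was not counted. The median was 0.04 over the 62 genes and 0.01 over all genes. The arrays did not overlap in 10 genes that were higher and 6 that were lower in IRAK2, against 23.2% and 19.6% of all genes, and none was called at 2-fold or more, against 0.239% of all genes. NOP56 had 10.86, 10.79 and 10.77 in IRAK2, against 10.83, 10.68 and 10.79 in Control, a difference of 0.04 with an interval from -0.27 to 0.36. NOP58 differed by -0.09 (interval -0.38 to 0.21) and NOP53 by 0.23 (interval -0.08 to 0.53). NOP10 had 11.59, 11.44 and 11.63 in IRAK2, against 11.20, 11.21 and 11.15 in Control, and RRP7 had 9.47, 9.31 and 9.43 in IRAK2, against 9.25, 8.91 and 9.10 in Control. Both were above Control on every array, by 0.37 ± 0.17 and 0.32 ± 0.11, without being called. Without IRAK1 replicate 1 in the shared spread both were called (adjusted p = 0.00229 and 0.0218), as were RRP15 at 0.31 and NOP2 at -0.22, which makes 3 higher and 1 lower, against 12.3% and 9.38% of all genes. Without Control replicate 1 the count was 1, a gene that was higher, against 4.72% of all genes higher.

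Set against IRAK4 and IRAK1, IRAK2 had the higher levels of many of the genes. Of the 62 genes 26 were higher and 0 lower in IRAK2 than in IRAK4, where 21.4% of all genes were higher and 29.4% lower. The median was 0.35 over the 62 genes and -0.06 over all genes. The arrays did not overlap in 37 genes that were higher and 2 that were lower in IRAK2, against 27.9% and 37.5% of all genes. NOP53 had 10.12, 9.77 and 9.87 in IRAK2, against 8.94, 8.65 and 8.66 in IRAK4, a difference of 1.17 ± 0.14 (adjusted p = 1.38e-05). UTP23 had 9.56, 9.45 and 9.47 in IRAK2, against 8.53, 8.37 and 8.50 in IRAK4 (1.03 ± 0.23, adjusted p = 0.00205). Every IRAK2 array of these genes lay above every IRAK4 array, and these 2 genes were called at 2-fold or more, against 6.75% of all genes. UTP4, NOP4 and UTP9 followed at 0.85, 0.81 and 0.79. Large-subunit factors gave 12 of the 26 calls (12 of 18 genes), and the exosome 1 of 7, RRP45 at 0.40 ± 0.08. The count was 16 without IRAK4 replicate 2 and 17 without IRAK2 replicate 1, all higher, where 17.4% and 18.4% of all genes were higher. Without IRAK1 replicate 1 it was 41, of which 40 were higher and 1 lower, against 26.1% and 34.0% of all genes.

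Against IRAK1, 52 of the 62 genes were higher and 0 lower in IRAK2, where 30.6% and 29.2% of all genes were higher and lower. The median was 0.71 over the 62 genes and 0.01 over all genes. The arrays did not overlap in 50 genes that were higher and 0 that were lower in IRAK2, against 31.3% and 30.7% of all genes. Without IRAK1 replicate 1, 47 were higher, against 32.6% of all genes, and the median was 0.42. NOP56 differed most, at 1.23 ± 0.15 and 1.02 without replicate 1, followed by UTP5 at 1.08 ± 0.20, NOP7 and UTP4 at 1.07, and NOC2 at 0.96. Without replicate 1 these were 0.75, 0.61, 0.76 and 0.64. With all arrays, NOP56, UTP5, NOP7 and UTP4, 4 genes, were called at 2-fold or more, against 10.3% of all genes.

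The direct comparison of IRAK1 with IRAK4 was the one in which replicate 1 decided the balance of higher and lower genes. With it, 16 of the 62 genes (25.8%) were lower and 0 higher in IRAK1 than in IRAK4, where 28.0% of all genes were lower and 18.3% higher. The share called lower thus lay near that of all genes. The median was -0.29 over the 62 genes and -0.08 over all genes. The arrays did not overlap in 17 genes that were lower and 0 that were higher in IRAK1, against 28.4% and 17.9% of all genes, and none was called at 2-fold or more, against 6.09% of all genes. Without it, 12 genes were lower and 11 higher, against 32.5% and 21.1% of all genes, and the median was -0.02. Both of these shares of the 62 genes lay below those of all genes. The 12 were all among the 16.

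The genes lower in IRAK1 than in IRAK4 either way included C/D-box proteins, UTP-A members and exosome subunits. With all arrays UTP5 had the lowest difference, and without replicate 1 RRP42 had it. NOP56 had 9.15, 9.62 and 9.97 in IRAK1, against 10.57, 10.45 and 10.61 in IRAK4 (-0.96 ± 0.15, adjusted p = 0.000103, and -0.75 without replicate 1). NOP58 had 10.53, 11.19 and 11.19 in IRAK1, against 11.86, 11.76 and 11.84 in IRAK4 (-0.85 ± 0.14, and -0.63 without). All IRAK1 arrays of both genes lay below all IRAK4 arrays. UTP5 differed by -0.99 ± 0.20, and by -0.66 without replicate 1. UTP10 and UTP22 differed by -0.76 and -0.71, and by -0.52 and -0.51 without. The RNA helicase RRP3 had 8.38, 9.11 and 8.96 in IRAK1, against 9.66, 9.40 and 9.93 in IRAK4 (-0.85 ± 0.16, and -0.63 without), and NOC4 differed by -0.84 ± 0.14, and by -0.62 without. RRP42 had 8.61, 8.47 and 8.63 in IRAK1, against 9.48, 9.31 and 9.31 in IRAK4, the steadiest of these differences at -0.79 ± 0.08 with and -0.81 without replicate 1 (adjusted p = 1.54e-06 and 1.17e-06).

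Once replicate 1 was left out, 11 genes were higher in IRAK1 than in IRAK4, of which NOP16 differed most. NOP16, a large-subunit factor, had 9.80 and 9.59 on IRAK1 replicates 2 and 3, against 9.15, 9.05 and 9.15 in IRAK4, while replicate 1 stood at 8.81. Its difference was 0.29 ± 0.18 with replicate 1 (adjusted p = 0.21) and 0.59 without it (adjusted p = 0.000182). NOP19 differed by 0.21 with and 0.54 without it, RRP36 by 0.14 and 0.53, UTP23 by 0.07 and 0.48, and UTP7 by 0.21 and 0.45. In these genes replicate 1 fell on the other side of the IRAK4 arrays from replicates 2 and 3. ENP2 changed sign, at -0.18 ± 0.30 with replicate 1 (adjusted p = 0.649) and 0.35 without it (adjusted p = 0.0135). The other 5 were RRP17, NOP53, NOP4, UTP9 and NOP10, with differences of 0.45, 0.40, 0.33, 0.32 and 0.30 without replicate 1. Leaving out IRAK1 replicate 2 or 3 instead gave 25 calls each, all lower, where 26.3% and 25.6% of all genes were lower.

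**Figure D4:**
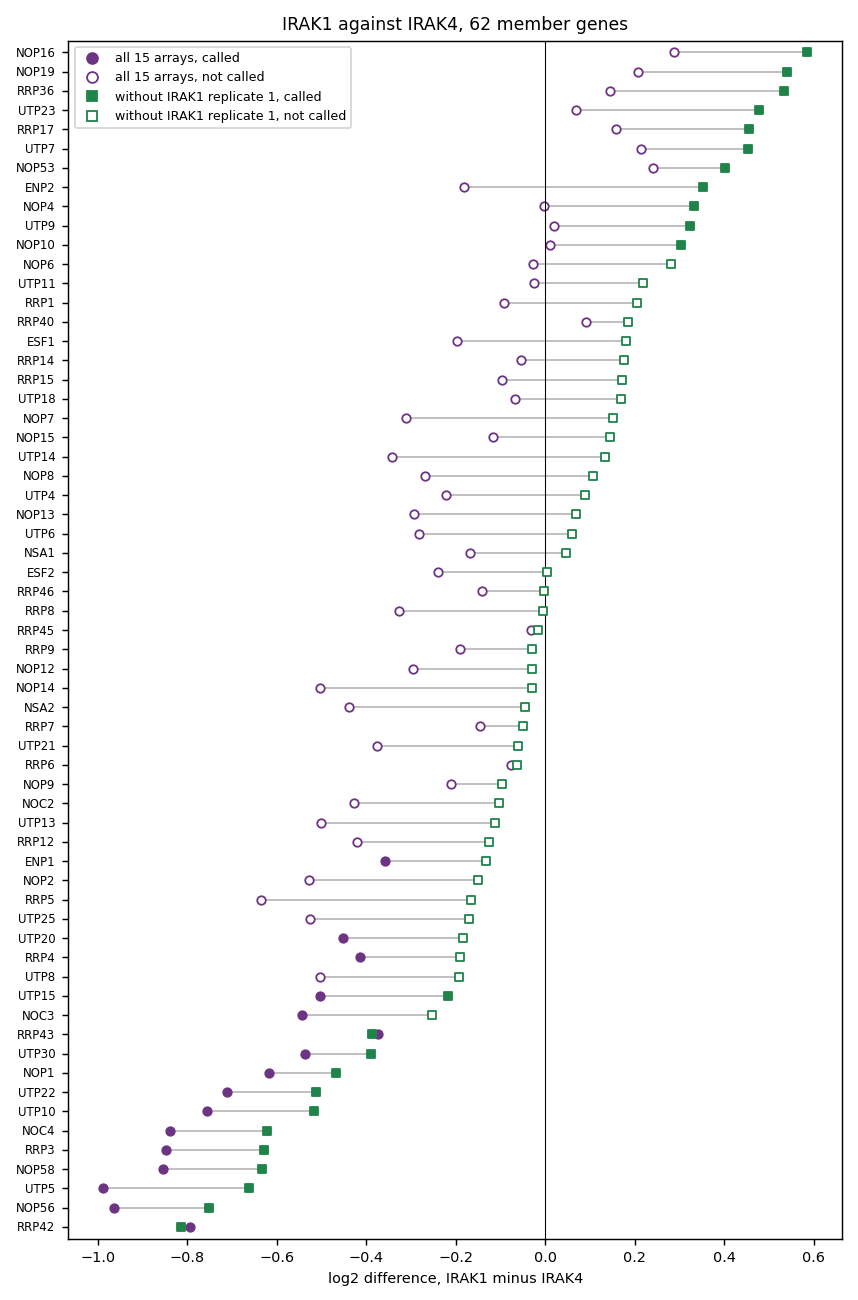
Difference between IRAK1 and IRAK4 in log2 units (x axis) for each of the 62 genes (rows), with all arrays (circles) and without IRAK1 replicate 1 (squares); filled symbols are called at an adjusted p under 0.05. All filled circles lie left of 0, whereas the filled squares lie on both sides, 12 lower and 11 higher in IRAK1.

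Looking at single genes across the groups, IRAK1 had the lowest of the 5 group means in 51 of the 62 genes (82.3%), against 34.5% of all genes, and IRAK4 in 10 (16.1%, against 14.9%). Without IRAK1 replicate 1 these counts were 30 (48.4%, against 35.0% of all genes) and 26 (41.9%, against 16.3% of all genes). With all arrays IRAK2 had the highest mean in 27 genes (43.5%, against 18.0% of all genes) and Control in 22 (35.5%, against 9.38%). RRP15 and NOC4 are the only neighbouring pair among the 62 genes in the RefSeq annotation (assembly R64), on chromosome XVI, and they differed by -0.46 and -0.80 in IRAK1 (-0.19 and -0.58 without replicate 1) and by -0.37 and 0.04 in IRAK4 against Control.

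Other ribosome biogenesis genes, with names outside the classical families, were also mostly lower in IRAK1. Of 103 such genes measured, 34 fell and 1 rose in IRAK4 (median -0.38), 8 fell and 0 rose in IRAK4(KD) (-0.16), 84 fell and 1 rose in IRAK1 (-0.64), and 0 fell and 1 rose in IRAK2 (0.00), all against Control. Of all genes 16.4%, 6.00%, 28.2% and 3.38% fell in these comparisons, so that the 7.77% that fell in IRAK4(KD) lay near the share of all genes. With IRAK1 replicate 1 left out, IRAK4 had 64 of the 103 lower (21.8% of all genes), IRAK4(KD) 35 (11.8%), IRAK1 72 (30.8%) and IRAK2 3 (9.38%). In IRAK1 with all arrays the falls comprised 27 of 35 small-subunit factors, 46 of 52 large-subunit factors, 5 of 5 H/ACA proteins and 6 of 11 exosome and TRAMP genes. Without IRAK1 replicate 1 these were 19, 42, 4 and 7. DBP2, an RNA helicase, had 7.69, 9.62 and 9.77 in IRAK1, against 10.86, 10.88 and 10.91 in Control (-1.86 ± 0.41, and -1.19 without replicate 1). NAN1, the remaining UTP-A subunit, had 7.55, 8.31 and 8.43 in IRAK1, against 9.04, 9.11 and 9.05 in Control (-0.97 ± 0.18, and -0.70 without). Both lay below Control on every IRAK1 array.

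In IRAK4 DBP2 had the largest called fall of these large-subunit factors, at -1.30 ± 0.41 against Control (adjusted p = 0.0181). LOC1 and CGR1 fell by 1.02 ± 0.11 and 1.01 ± 0.25, and CGR1 was also called lower in IRAK4(KD), at -0.82 ± 0.25. LOC1 had 9.14, 9.01 and 9.17 in IRAK4, against 10.29, 10.04 and 10.03 in Control, while its IRAK1 values of 9.73, 10.07 and 10.01 overlapped Control (-0.18 ± 0.11, and -0.08 without replicate 1, not called). MPP6, a cofactor of the nuclear exosome, was the 1 gene of these lists that rose in IRAK2, at 9.03, 8.81 and 8.97 in IRAK2, against 8.58, 8.58 and 8.40 in Control (0.42 ± 0.10, adjusted p = 0.0217). It was not called when Control replicate 2 (0.45) or 3 (0.36) or IRAK2 replicate 1 (0.37) or 3 (0.40) was dropped. MPP6 also rose in IRAK1, by 0.34 ± 0.10 (0.38 without replicate 1), and fell by 0.30 in IRAK4.

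Upstream and downstream of the assembly factors, RNA polymerase I genes (its subunits and the initiation factor RRN3) fell in 8 of 8 cases in IRAK1, and in 6 without replicate 1. RPA190, the largest subunit, had 8.90, 9.78 and 9.88 in IRAK1, against 10.48, 10.46 and 10.44 in Control (-0.94 ± 0.18, and -0.63 without replicate 1). With all arrays RRN3 was the 1 gene of these 8 that fell in IRAK4 and in IRAK4(KD), by 0.87 ± 0.13 and 0.55 ± 0.13, and the second was not called without Control replicate 3 (-0.55). With IRAK1 replicate 1 out of the shared spread, 4 of the 8 were lower in IRAK4 and 3 in IRAK4(KD). Of all genes 16.4% and 6.00% were lower in IRAK4 and IRAK4(KD) with all arrays, and 21.8% and 11.8% with replicate 1 out. With all arrays the share of these 8 genes that fell in IRAK4 (12.5%) was thus below that of all genes. Of 128 cytosolic ribosomal protein genes 122 fell and 1 rose in IRAK1, where 28.2% of all genes fell and 30.6% rose, and without replicate 1 the counts were 120 and 1, against 30.8% and 30.1% of all genes. Direct comparison of IRAK4 with IRAK4(KD) found 62 of the 128 lower and 0 higher in IRAK4, beside 4 lower and 1 higher of the 62 assembly factors, where 15.3% of all genes were lower and 19.7% higher. With IRAK1 replicate 1 out of the shared spread these were 94 and 0 of the 128 and 23 and 3 of the 62, against 22.4% and 24.3% of all genes.

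The known transcriptional regulators of these genes were themselves measured. DOT6 and TOD6 encode related repressors that bind the PAC element of ribosome biogenesis promoters, STB3 encodes a repressor of the RRPE element, SFP1 an activator of ribosome biogenesis and ribosomal protein genes, and IFH1 and CRF1 the coactivator and corepressor that act with FHL1 at ribosomal protein genes. DOT6 had 10.73, 10.71 and 10.54 in IRAK4, against 9.67, 9.82 and 9.81 in Control. It rose by 0.89 ± 0.08 (adjusted p = 1.21e-06), and it was higher by 1.09 ± 0.08 in IRAK4 than in IRAK4(KD), where it had 9.54, 9.61 and 9.58. No IRAK4 array overlapped with either of those groups. In IRAK1 DOT6 had 9.97, 10.09 and 9.86 (0.20 ± 0.08 against Control, adjusted p = 0.0416), a call that was lost without Control replicate 1 (0.16), 2 (0.23) or 3 (0.23), without IRAK1 replicate 2 (0.15) and after centring of the arrays (0.17).

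CRF1 had 9.25, 9.39 and 9.24 in IRAK1, against 5.74, 6.48 and 6.39 in Control, a difference of 3.09 ± 0.21 (adjusted p = 3.43e-08) in which replicate 1 did not stand apart (3.12 without it). The Control values of CRF1 lie within the range of the alpha-type genes MF(ALPHA)1, MF(ALPHA)2 and STE3 (2.62 to 6.57), so they are not shown to be above background and the size of the difference is not an exact fold change. In IRAK4(KD) CRF1 had 5.18, 4.83 and 5.14, in the same range, and no difference from Control is given. IFH1 had 7.22, 8.18 and 8.14 in IRAK1, against 8.39, 8.57 and 8.64 in Control (-0.69 ± 0.20, and -0.37 without replicate 1, called both ways). SFP1 had 9.07, 8.75 and 8.81 in IRAK1, against 9.33, 9.33 and 9.26 in Control, and fell by 0.43 ± 0.12, or by 0.53 without replicate 1. It also fell by 0.43 ± 0.12 in IRAK2, where it had 9.03, 8.82 and 8.77 and where no assembly factor was called; that call was lost without any 1 of the Control arrays and without IRAK2 replicate 2 or 3 (-0.38 to -0.46).

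STB3 rose by 0.51 ± 0.16 in IRAK4 and by 0.57 ± 0.16 in IRAK1 (0.37 without replicate 1), at 8.30, 8.26 and 8.46 in IRAK4 and 8.79, 8.25 and 8.15 in IRAK1, against 8.0, 7.89 and 7.59 in Control. In IRAK4 the call was lost without Control replicate 3 (0.39) or IRAK4 replicate 3 (0.45). TOD6 had 8.16, 7.92 and 8.18 in IRAK4 and 7.03, 8.54 and 8.31 in IRAK1, against 8.81, 8.80 and 8.81 in Control. It fell by 0.72 ± 0.27 in IRAK4 (adjusted p = 0.0449), a call lost whichever of the 6 arrays was left out (-0.64 to -0.77) and kept without IRAK1 replicate 1 (adjusted p = 0.000157). In IRAK1 it fell by 0.85 ± 0.27, and by 0.39 without replicate 1. With all arrays, FHL1 and SCH9, the kinase that links nutrient signals to these regulators, were not called against Control in any of the 4 comparisons. SCH9 was called higher in IRAK4 than in IRAK4(KD), by 0.38 ± 0.11 (adjusted p = 0.0154).

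**Figure D5:**
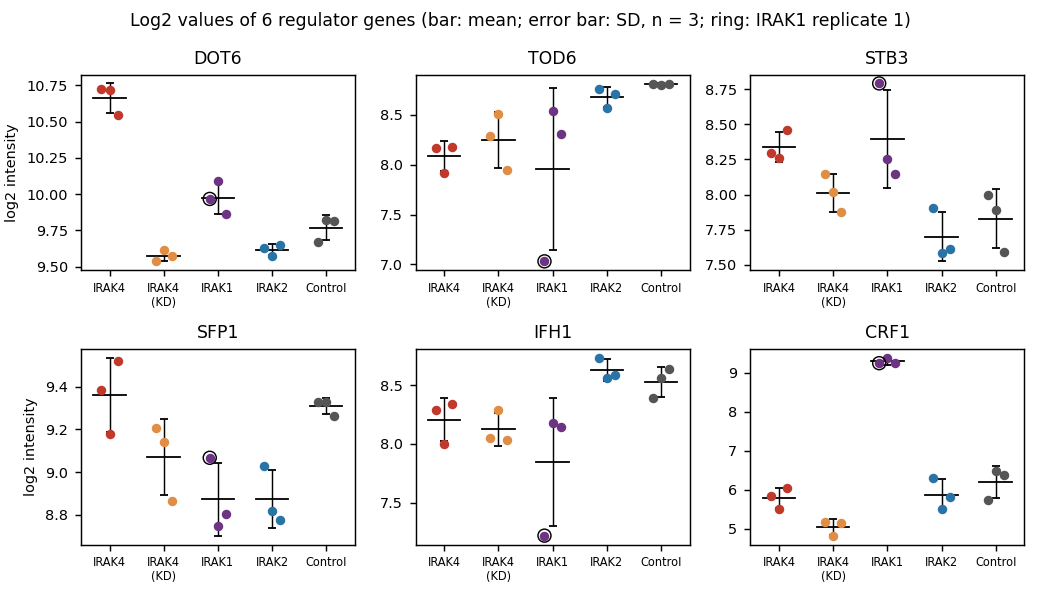
Log2 values (y axis) of the regulator genes DOT6, TOD6, STB3, SFP1, IFH1 and CRF1 in IRAK4, IRAK4(KD), IRAK1, IRAK2 and Control, with each array as a dot, the mean as a horizontal line and the SD as an error bar (n = 3); rings mark IRAK1 replicate 1. DOT6 stands out in IRAK4 and CRF1 in IRAK1, and in TOD6 and IFH1 IRAK1 replicate 1 lies below the other IRAK1 arrays.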

How the data were processed

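Total RNA of 15 cultures was hybridised to Affymetrix arrays after biotin labelling, as the labels' protocols state. The authors' deposited values are log2 intensities made with GCRMA, per the submitters' processing notes. No scanner files or detection calls were used here; precision is limited by the number of arrays. Of 5716 probe sets, 5498 were paired with 1 gene by the platform annotation; for 47 genes the probe set with the highest mean was kept, leaving 5449. The 62 members, the role lists and the naming rule were chosen with earlier results of these data known. GCRMA left identical values on some arrays in 952 genes, 6 of them members.

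The 5 group means were fitted with limma 3.58.1 (R 4.3.3, eBayes defaults, two-sided, Benjamini-Hochberg over 5449 genes, called at adjusted p under 0.05) in 8 comparisons, and the procedure was tested on simulated data. The simulated arrays all had the same spread per gene, so this test does not cover an array that stands apart, such as IRAK1 replicate 1. Errors after ± are standard errors of the fit, and intervals have a level of 95%. Named genes were drawn from the members with the largest called differences without overlap. These were up to 10 each way, or 5 for comparisons between kinases other than IRAK4 with IRAK4(KD). A fixed list of subcomplex, snoRNP, assembly and exosome genes, and up to 3 called genes per pathway list, were added. Not every gene that this rule gives is printed. Genes outside the rule are also named, some of them marked as chosen later. Figures were drawn with matplotlib 3.10.9.

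Alternatives were median centring, quantile normalization, a minimum mean of 5, the mean of probe sets, eBayes with trend, array weights, the 6 arrays alone, 2-fold, a replicate block and leaving out each array. The labels do not say what replicate numbers stand for. Deviations of same-numbered IRAK1 and Control arrays correlated at 0.10 to 0.35, so these are paired by the rule applied (over 0.1 in every pair); the source is unknown, and no other groups passed.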

Additional observations from a re-analysis of the deposited data

How the results depend on the processing

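The counts of called genes among the 62 depended mainly on the estimate of the spread, not on scaling. With array weights they were 21 in IRAK2, 29 in IRAK4(KD) and 45 in IRAK4 against Control, 24 in IRAK4 against IRAK4(KD) and 44 in IRAK2 against IRAK4, where 47.6%, 49.2%, 66.5%, 53.0% and 67.4% of all genes were called. The 21 in IRAK2 were 11 higher and 10 lower, a share below that of all genes. From the 6 arrays alone they were 4 in IRAK2, 26 in IRAK1, 23 in IRAK4(KD) and 34 in IRAK4 against Control, and 22 in IRAK4 against IRAK4(KD), where 25.8%, 45.1%, 31.7%, 51.1% and 40.1% of all genes were called. With a limit of 2-fold they were 0, 0 and 3 in IRAK4, IRAK4(KD) and IRAK1 against Control, 0 in IRAK4 against IRAK4(KD), 0 in IRAK1 against IRAK4, 2 in IRAK2 against IRAK4 and 4 in IRAK2 against IRAK1. With 1 array left out the ranges were 0 to 4 in IRAK2, 41 to 56 in IRAK1, 0 to 27 in IRAK4(KD) and 10 to 37 in IRAK4 against Control, 1 to 26 in IRAK4 against IRAK4(KD), 11 to 25 in IRAK1 against IRAK4, 16 to 41 in IRAK2 against IRAK4 and 44 to 58 in IRAK2 against IRAK1. In the same order, the shares of all genes called were 2.68% to 21.7%, 51.3% to 60.9%, 5.96% to 34.1% and 33.7% to 55.8% against Control. Between kinases they were 27.4% to 46.8%, 39.1% to 53.6%, 43.2% to 60.2% and 51.8% to 61.1%. The replicate block over all arrays gave 0 in IRAK2, 50 in IRAK1, 4 in IRAK4(KD) and 16 in IRAK4 against Control, where 7.98%, 57.9%, 15.8% and 43.0% of all genes were called. Among single results for members it ended the calls of NOP15 and NOP16 in IRAK4, NOP53 in IRAK4 against IRAK4(KD), UTP20 in IRAK1 against IRAK4, and ESF1 in IRAK2 against IRAK4 and NOP14 in IRAK2 against IRAK1. The replicate block in the 6 arrays, chosen after seeing the data, gave 36 in IRAK1 against Control, the pair that passed the pairing rule, and 32, 26 and 4 in IRAK4, IRAK4(KD) and IRAK2 against Control, 13 in IRAK4 against IRAK4(KD) and 9 in IRAK1 against IRAK4. In the same order, 46.2%, 42.8%, 38.6%, 24.1%, 30.5% and 19.2% of all genes were called. Centring each array moved the median of all genes in IRAK4 against Control from 0.08 to 0.01 and the genes lower from 18 to 21, where the share of all genes lower went from 16.4% to 21.4%. For 281 results of single genes, all of them called with all arrays, 15 or 16 alternatives each were fitted. The call was kept in 3873 of these fits and lost in 446, and 0 changed direction. Genes not called with all arrays were left out of this count, among them ENP2, which changed sign in IRAK1 against IRAK4.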
